A study of Mus musculus with 10 samples.

Results

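The network described here is the set of 8 genes Myc, Mycn, Max, Mxd1, Mxd3, Mxd4, Mxi1 and Mnt, read in primary mouse keratinocytes, the main cell type of the epidermis, in culture. Its members were taken as every probe set (a group of short array probes against 1 transcript or a few related ones) annotated to a single one of these genes, which gave 19 probe sets of 34945 annotated to exactly 1 gene, and 8 genes of 18193. One group of 5 arrays carried RNA from mice labelled Sgpp1+/+ (WT, numbered 1 to 5) and the other 5 from mice labelled Sgpp1-/- (KO, numbered 8, 9, 10, 21 and 23). Sgpp1 encodes an enzyme that removes the phosphate from the signalling lipid sphingosine-1-phosphate. Culture lasted 3 to 4 days in both groups, at 0.05 mM calcium and with 8% fetal calf serum. This is a low calcium level that usually holds mouse keratinocytes in a proliferating state, and no other treatment is named. Strain, age, the part of Sgpp1 that was disrupted, and whether samples came from separate animals or cultures are not given in the sources used here, so a p-value here reflects the spread among these samples, which may be technical.

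MYC and MYCN are basic helix-loop-helix leucine zipper proteins that bind DNA only as a pair with MAX, and such pairs raise the transcription of genes for ribosome production, metabolism and the cell cycle. MXD1, MXD3, MXD4, MXI1 and MNT pair with the same MAX and recruit SIN3 corepressor complexes to the same sites, the E-boxes with the letters CACGTG. In epidermis MYC is known from the basal layer, and MXD1 from cells that have left the cell cycle and differentiate.

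The arrays labelled KO did not carry less Sgpp1 transcript. Its brightest probe set read from 6.25 to 8.33 in WT and from 8.46 to 9.03 in KO (log2 signal). All 3 of its probe sets had every KO array above every WT array, with differences of 1.15, 1.24 and 0.51, though none passed limma's test (adjusted p from 0.125 to 0.165). Directions given here therefore rest on the labels alone, and a probe set outside the disrupted part checks nothing. The basal keratinocyte markers fixed as a list were bright in both groups, led by Krt5 (12.78 ± 0.06 in WT and 12.73 ± 0.10 in KO, mean log2 signal ± SD, n = 5 each). Array medians lay between 5.02 and 5.17, and array WT 1 had the lowest mean correlation with the other arrays, 0.955 against 0.967 to 0.977. Of other cell types, the mean of 8 fibroblast markers ran from 6.06 to 9.37 in WT and from 6.24 to 8.13 in KO, and that of 8 melanocyte markers from 6.30 to 9.35 and from 7.62 to 9.18, led by Vim and Tyrp1. For 10 myeloid and Langerhans cell markers, led by Lyz2, the mean ran from 4.79 to 5.99 in WT and from 4.74 to 5.83 in KO. All 6 endothelial markers had a mean under 5, led by Pecam1, and so did 4 of 5 T cell markers, the other being Thy1, which is also on the fibroblast list. In bulk RNA, fewer cells of a type and less RNA per cell cannot be told apart.

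Promoter sequences show where the letters bound by these proteins occur in the genes of the network itself. RefSeq promoters of 300 bases (assembly GRCm38.p6, from 250 bases before a gene's start to 50 after it) matched 7 of the 8 members, all but Myc. The letters CACGTG, which read the same on both strands, occurred in 3 of the 7, Max, Mxd4 and Mnt, against 7.15% of all 32851 promoters in the table and 8.09% of its genes. The stretches around them are shown 5′ to 3′ on the gene's strand, with the E-box in capitals, because these are the members whose own promoters hold the letters.
Max, chr12:76962221-76962276, minus strand: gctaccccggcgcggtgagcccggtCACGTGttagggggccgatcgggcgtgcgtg
Mxd4, chr5:34187899-34187954, minus strand: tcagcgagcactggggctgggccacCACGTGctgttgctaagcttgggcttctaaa
Mnt, chr11:74830776-74830831, plus strand: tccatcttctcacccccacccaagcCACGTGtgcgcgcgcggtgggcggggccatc
The E-box began 3 bases before the start of Max, 219 before that of Mxd4 and 123 before that of Mnt. A match describes the letters and is not evidence of binding.

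The promoter of Mxd1 is shown whole because this was the only member with a probe set that passed limma's test, as higher in KO. It held no CACGTG. Capitals mark GGGCGG or its complement CCGCCC, the core of the GC box, and CCAAT or its complement ATTGG, the CCAAT box.
Mxd1, chr6:86669110-86669409, minus strand: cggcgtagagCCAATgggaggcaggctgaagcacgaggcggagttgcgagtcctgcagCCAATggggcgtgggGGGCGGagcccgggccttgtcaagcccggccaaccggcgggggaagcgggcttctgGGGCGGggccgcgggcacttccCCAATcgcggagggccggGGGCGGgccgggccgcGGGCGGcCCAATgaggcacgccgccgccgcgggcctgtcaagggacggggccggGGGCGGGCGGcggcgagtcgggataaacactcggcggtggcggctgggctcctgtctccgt
It held 6 matches to the GC box letters, of which the last pair overlap, and 4 to the CCAAT box. Of the other members, Mxd3 held 8 matches to the GC box letters, Mnt 4, Mycn 2, Mxd4 1 and Max 0. The 3 promoters of Mxi1 held 1, 4 and 4. Of these other members only Mxd4 held the CCAAT box letters, with 2 matches. Among all promoters of that table, 35.7% held the GC box letters and 37.4% the CCAAT box letters on either strand.

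Mxd1 was the only one of the 8 members called higher in KO, and no member was called lower. A gene said to rise or fall here was called in that direction. By limma's test with Benjamini-Hochberg adjustment over all 34945 probe sets at a threshold of 0.05, 2 of the 19 member probe sets were called, against 1.76% of all probe sets. Both were of Mxd1 and higher in KO, where 1.54% of all were called higher. None was called lower, against 0.223% of all. At an unadjusted p under 0.05 there were 6 of 19 in either direction, against 11.6% of all probe sets. The 6 were the 3 of Mxd1 and 1 each of Max, Mxi1 and Mycn. The median difference over the 19 was 0.18 on the log2 scale, and 0.17 over the 16 that are not Mxd1, beside -0.01 over all probe sets. Differences were above 0 for 15 of the 19, and for 12 of the 16 that are not Mxd1.

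The brightest Mxd1 probe set (1455104_at) read 6.33, 7.17, 6.75, 6.82 and 7.33 on WT 1 to WT 5, and 7.98 on both KO 21 and KO 23, 8.34 on KO 8, 8.61 on KO 9 and 8.87 on KO 10 (log2 signal). Each KO array lay above each WT array, with WT 1 lowest and KO 10 highest. The means were 6.88 ± 0.39 in WT and 8.36 ± 0.39 in KO (SD, n = 5 each), a difference of 1.47 (SE 0.22, 95% interval 0.99 to 1.96), or 2.78-fold, with a limma adjusted p of 0.00417. The probe set 1434830_at moved with it. It read 5.90, 6.98, 6.83, 6.68 and 7.26 on WT 1 to WT 5 and 7.95, 8.27, 8.00, 8.65 and 8.76 on KO 21, 23, 8, 9 and 10. That is a difference of 1.60 (SE 0.25), or 3.03-fold, with a limma adjusted p of 0.00493.

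The third Mxd1 probe set (1422002_at) read 6.41, 6.87, 6.56, 6.29 and 6.50 on WT 1 to WT 5 and 6.98, 6.96, 7.25, 7.67 and 8.13 on the KO arrays in the order above. Its groups did not overlap either, but KO 21 and KO 23 lay only just above WT 2. The difference was 0.87 (SE 0.22, 95% interval 0.39 to 1.35), 1.83-fold, with a limma adjusted p of 0.0778, which does not pass. All 3 Mxd1 probe sets had an exact two-sided permutation p of 0.00794, and groups of 5 and 5 cannot yield a smaller one. By the same permutation test Max had a p of 0.0159, and Mxd3 1438847_at and Mxi1 1450376_at had 0.0238 each. The remaining member probe sets had 0.0952 or more, and these p-values are not adjusted. Over all 34945 probe sets, 3.70% had groups that did not overlap, and 2.71% had KO above WT. The 3 Mxd1 probe sets read the same transcript and are not independent.

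**Figure D1:**
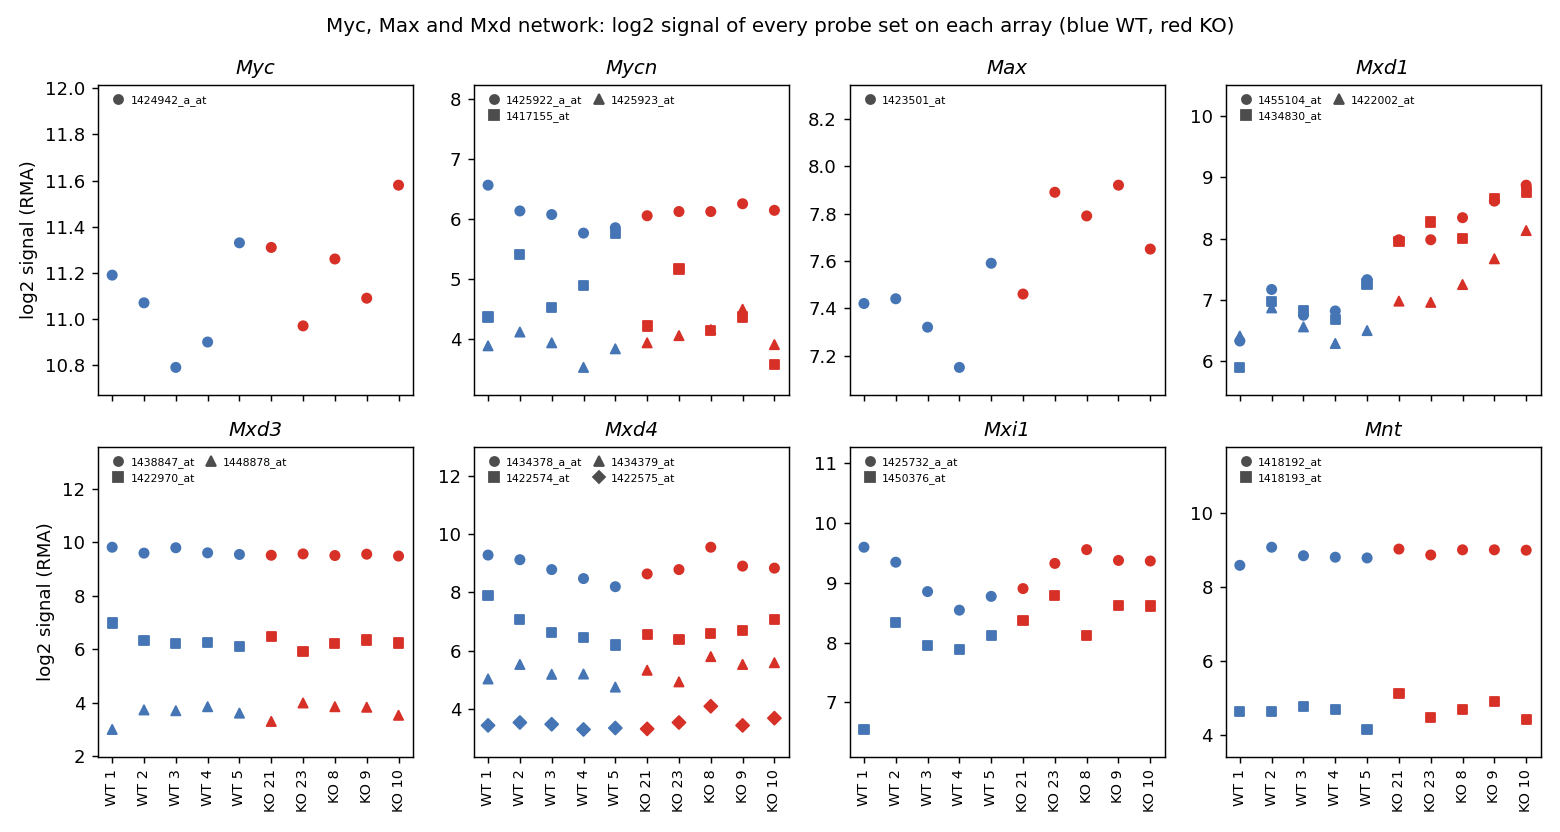
Log2 signal of each of the 19 probe sets (marker shape) on each of the 10 arrays, 1 panel per gene, with WT arrays in blue and KO arrays in red. All 3 Mxd1 probe sets lie higher on each KO array than on each WT array, and for the other 7 genes the groups overlap.

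The calls of the 2 Mxd1 probe sets held when each array was left out in turn. The difference of the brightest stayed between 1.34 (without WT 1) and 1.59 (without WT 5), and its limma adjusted p between 0.00357 and 0.0198. The third, 1422002_at, was called in 0 of these 10 fits, with a limma adjusted p from 0.0548 to 0.236. Neither call held when the running number in the sample titles entered the fit. WT samples carry the numbers 1 to 5 and KO samples 6 to 10, so number and group are nearly the same variable. KO 21, KO 23, KO 8, KO 9 and KO 10 carry 6 to 10 in that order. Along them the brightest Mxd1 probe set read 7.98, 7.98, 8.34, 8.61 and 8.87, and its others were also highest on KO 10. On WT 1 to WT 5 the brightest went from 6.33 to 7.33, though not evenly. In the main fit the 2 called probe sets differed by 1.47 (SE 0.22) and 1.60 (SE 0.25). With the number as a covariate their differences were 0.46 (SE 0.33) and 0.49 (SE 0.37) with a limma adjusted p of 0.923 each. In that fit 0 of all probe sets were called, 1557 had an unadjusted p under 0.05, and the median SE per probe set went from 0.185 to 0.372. What the number stands for is not given in the sources used here, and its part in the result was not tested otherwise.

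Among the activators, Myc did not pass. Its single probe set (1424942_a_at) read 11.19, 11.07, 10.79, 10.90 and 11.33 on WT 1 to WT 5, and 11.31, 10.97, 11.26, 11.09 and 11.58 on KO 21, 23, 8, 9 and 10. The groups overlap, with WT 3 lowest and KO 10 highest. The means were 11.06 ± 0.22 and 11.24 ± 0.23 (SD, n = 5 each), a difference of 0.18 (SE 0.16) with a limma adjusted p of 0.770. The 95% interval ran from -0.16 to 0.52. WT 3 and WT 4, lowest for Myc, had the highest fibroblast marker means, 2.06 and 1.70 relative to the 10-array mean. KO 23, lowest of the KO arrays for Myc, came next at 0.83. The part of fibroblasts in the Myc values was not tested.

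Mycn, the paralog best known from neural and embryonic tissue, did not pass on any of its 3 probe sets. The brightest, 1425922_a_at, read 6.07 ± 0.31 in WT and 6.13 ± 0.07 in KO (SD, n = 5 each), a difference of 0.06 (SE 0.16). The probe set 1417155_at, with a mean under 5, read 4.36, 5.41, 4.52, 4.89 and 5.75 on WT 1 to WT 5 and 4.21, 5.16, 4.14, 4.36 and 3.57 on the KO arrays in the same order. KO 23 lay within the upper WT values and KO 10 lowest of all, so the groups overlap. The difference of -0.70 (SE 0.31, 95% interval -1.38 to -0.03) had a limma adjusted p of 0.401. The remaining one differed by 0.25, so the 3 disagree in sign.

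Max, the shared partner without which none of the others binds DNA as described, read 7.42, 7.44, 7.32, 7.15 and 7.59 on WT 1 to WT 5 and 7.46, 7.89, 7.79, 7.92 and 7.65 on KO 21, 23, 8, 9 and 10. Of the KO arrays, 4 lay above all WT arrays and KO 21 did not. The difference was 0.36 (SE 0.14, 95% interval 0.05 to 0.66), 1.28-fold, with a limma adjusted p of 0.311. It did not pass.

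**Figure D2:**
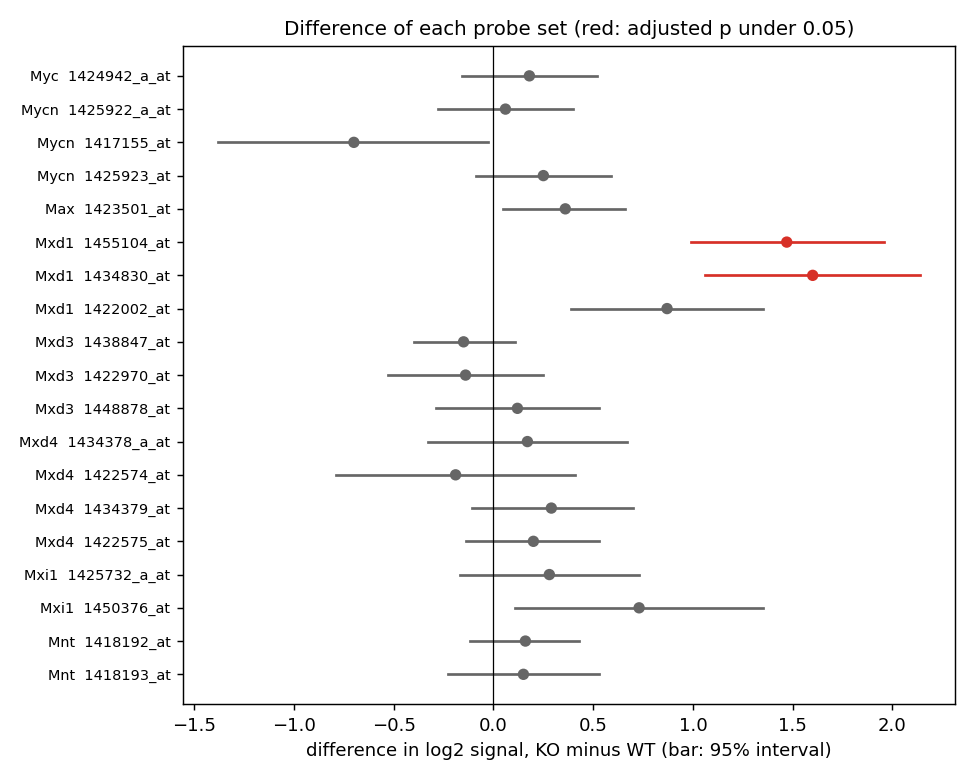
Difference in log2 signal, KO minus WT, of each of the 19 probe sets (points) with its 95% interval (bars) from the limma fit, red where the adjusted p is under 0.05. The 2 red points are Mxd1 probe sets at 1.47 and 1.60, and the 16 probe sets of the other genes lie between -0.70 and 0.73.

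The other repressors of the network did not pass on any of their 11 probe sets. Mxi1, an MXD family member, was read by 2. The brighter, 1425732_a_at, had means of 9.02 ± 0.43 in WT and 9.30 ± 0.24 in KO, a difference of 0.28 (SE 0.21, limma adjusted p = 0.714). The dimmer, 1450376_at, read 6.55, 8.33, 7.95, 7.89 and 8.12 on WT 1 to WT 5 and 8.37, 8.78, 8.12, 8.62 and 8.61 on KO 21, 23, 8, 9 and 10. WT 1 stood far below every other array here, while on the brighter probe set it was the highest of all at 9.59. The difference of 0.73 (SE 0.29, limma adjusted p = 0.313) was 0.43 without WT 1.

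Mxd3, which is known from cells in S phase, and Mxd4, a member linked to cells leaving the cycle, showed no called probe set. The brightest of 3 for Mxd3, 1438847_at, read 9.67 ± 0.12 in WT and 9.52 ± 0.03 in KO, a difference of -0.15 (SE 0.12, 95% interval -0.40 to 0.11). The others differed by -0.14 and 0.12. The brightest of 4 for Mxd4, 1434378_a_at, ran from 8.20 on WT 5 to 9.29 on WT 1 and from 8.64 on KO 21 to 9.56 on KO 8, so the groups overlap almost fully. It differed by 0.17 (SE 0.23, 95% interval -0.33 to 0.67), and the others by -0.19, 0.29 and 0.20.

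Mnt, the broadly expressed MAX partner, did not pass either. Its brighter probe set read 8.82 ± 0.17 in WT and 8.97 ± 0.07 in KO (SD, n = 5 each), a difference of 0.16 (SE 0.13, 95% interval -0.12 to 0.43) with a limma adjusted p of 0.748. The dimmer differed by 0.15.

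The genes around the network were read in lists, with the brightest probe set standing for a gene. Of all 18193 genes 2.25% were called, 2.02% were called higher and 0.225% lower, and 52.4% had a difference below 0. At an unadjusted limma p under 0.05 the share was 11.6% of all 34945 probe sets. No such share was computed over genes, so the unadjusted counts of the lists lack a like background. Over the 221 measured genes of 11 lists, all those described next other than the keratinocyte markers, 7 rose and 3 fell. When single arrays were left out, 4 to 6 were higher and 0 to 8 lower, the 8 without KO 8. Without WT 1, WT 2 and KO 8, the arrays with the most poly-A spike-in signal (10.93 to 11.49 against at most 10.70), 3 were higher and 1 lower.

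Regulators of Myc in skin included Klf4 and Prdm1 among the called genes. Of 19 measured, 2 rose and 0 fell, and 6 had an unadjusted limma p under 0.05. Klf4, a zinc finger factor of the differentiating epidermal layers, read 9.30, 9.91, 9.83, 9.60 and 9.34 on WT 1 to WT 5 and 10.58, 10.49, 10.40, 10.78 and 10.70 on KO 21, 23, 8, 9 and 10. The groups did not overlap. It rose by 0.99 (SE 0.16), 1.99-fold, with a limma adjusted p of 0.00522, and its other probe set rose by 0.68.

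Prdm1, which encodes BLIMP1, a repressor of Myc in several lineages, rose by 1.35 (SE 0.30), with group means of 5.96 ± 0.62 in WT and 7.32 ± 0.48 in KO (SD, n = 5 each) and a limma adjusted p of 0.0407. That call was lost in 8 of the 10 fits that left out 1 array and kept without WT 3 and without KO 8. Ovol1, another repressor of Myc in epidermis, and Tcf7l1, a Wnt pathway factor of progenitors, did not pass, at differences of 0.66 (limma adjusted p = 0.244) and -0.62 (limma adjusted p = 0.238).

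Other proteins of the MAX and MLX families were not called: of 5 measured, 0 passed and 0 had an unadjusted limma p under 0.05. Mycl, the third MYC paralog, differed by 0.22, and Mlx, which pairs with some of the MXD proteins, by 0.22. The MLX partners Mlxip and Mlxipl differed by -0.12 and -0.07. The coactivators MYC recruits gave 0 calls by limma among 15 genes, with 1 unadjusted p under 0.05 and a median of -0.19. Ruvbl2, a subunit of chromatin remodelling complexes, differed by -0.65 (SE 0.28), Smarca4, the ATPase of the BAF complexes, by -0.40, the acetyltransferase gene Kat2a by -0.36 and Ruvbl1 by -0.32.

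The corepressors of the network, among them those that MXD proteins recruit, also gave 0 calls by limma. Of 10 genes, 3 had an unadjusted p under 0.05, and the median was -0.19. Sin3a, the scaffold that binds the MXD repression domain, read 9.06 ± 0.22 in WT and 8.67 ± 0.12 in KO, a difference of -0.39 (SE 0.14, limma adjusted p = 0.245), and all KO arrays lay below all WT arrays. Hdac2, a histone deacetylase of that complex, differed by -0.50, Rbbp7, a histone-binding subunit, by -0.29, and the DNA methyltransferase gene Dnmt3a by -0.55. Genes acting on the turnover or stability of MYC protein gave 0 calls by limma among 21, with 4 unadjusted p under 0.05. The deacetylase gene Sirt2 came nearest, with a difference of 0.56 (SE 0.14) and a limma adjusted p of 0.0669. The list had 1 gene called higher with 1 probe set per gene, with the mean of a gene's probe sets and after a further quantile normalisation, and 1 higher and 2 lower with array weights. The kinase gene Aurka differed by -0.90, the ubiquitin ligase gene Fbxo32 by -0.65 and the phosphatase inhibitor gene Set by -0.56.

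Genes known to be raised by MYC lay mostly below 0, with few calls. Of 35 genes of ribosome production and the nucleolus, 31 had a difference below 0 and 0 were called by limma (3 unadjusted p under 0.05), with a median of -0.24 beside -0.01 for all genes. Tcof1, a nucleolar factor of ribosomal RNA transcription, differed by -0.53 and Dkc1, the pseudouridine synthase, by -0.41. Noc4l, a ribosome assembly factor, differed by -0.43 and Rrn3, a factor of RNA polymerase I, by 0.40. The mean of the list on KO 23 and KO 8, 0.21 and 0.12 relative to the 10-array mean, lay within the WT range of -0.06 to 0.39, and the other KO arrays were at -0.42 (KO 21), -0.28 (KO 9) and -0.13 (KO 10), each below every WT array. The proliferation markers given below split the KO arrays in the same way, and their part in this difference was not tested.

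Of 36 genes of metabolism and translation, 1 rose and 1 fell, and 9 had an unadjusted limma p under 0.05. A difference below 0 was seen in 27, and the median was -0.23. Hk2, encoding hexokinase 2, read 8.35, 8.66, 9.11, 9.10 and 9.08 on WT 1 to WT 5 and 10.02, 9.60, 9.63, 9.67 and 9.88 on the KO arrays in the order above. It rose by 0.90 (SE 0.18, limma adjusted p = 0.0207), with no overlap, and lost the call without KO 21, KO 9 or KO 10. Shmt2, the mitochondrial serine hydroxymethyltransferase, went from 10.17 ± 0.15 to 9.51 ± 0.20 (SD, n = 5 each) and fell by 0.66 on the log2 scale (SE 0.14, limma adjusted p = 0.0327). That call was kept in 2 of the 10 fits that left out 1 array, those without WT 1 and without KO 8. Its other probe sets differed by -0.26 to -0.52 and did not pass. Mthfd1l, of the same one-carbon pathway, and the purine synthesis gene Atic differed by -0.87 and -0.74 and did not pass.

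Of 26 cell cycle targets 22 had a difference below 0, 0 were called by limma and 13 had an unadjusted p under 0.05, with a median of -0.45. Ccna2 and Ccnd1, the genes of cyclins A2 and D1, differed by -1.08 (SE 0.27) and -1.01 (SE 0.31), Cks2, encoding a subunit of cyclin-dependent kinases, by -0.93, and the condensin gene Smc2 by -0.75. Their limma adjusted p ran from 0.0733 to 0.155. Without KO 8 this list had 3 genes called lower, without WT 3 or without KO 23 it had 1, and with array weights, which give less weight to arrays that deviate, it had 5. The mean of the list on KO 23 and KO 8, 0.12 and 0.19 relative to the 10-array mean, lay within the WT range of -0.07 to 0.57, and KO 21, KO 9 and KO 10 lay at -0.58, -0.40 and -0.40.

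Proliferation markers that are not specific to MYC differed in the same direction, with a median of -0.74, and 11 of 16 had an unadjusted limma p under 0.05. Of 16, 1 fell, Prc1, a regulator of cytokinesis, by 0.94 (limma adjusted p = 0.0407, kept in 3 of 10 fits that left out 1 array, those without WT 3, KO 23 and KO 8), and all 16 had a difference below 0. The count of 1 was 3 without KO 8, 2 without KO 23, 1 without WT 3 and 0 without each other array, and it was 9 with array weights. Kif20a differed by -0.94, Ube2c by -0.90 and Birc5 by -0.85. Whether the target genes differ with MYC and MXD1 or with proliferation in general was not tested.

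Genes known to be repressed by MYC went both ways: of 24, 2 rose and 1 fell, with a median of 0.16. An unadjusted limma p under 0.05 was seen in 8. Cebpa, a factor of epidermal differentiation, read 7.40, 7.85, 8.27, 7.84 and 8.00 on WT 1 to WT 5 and 8.69, 9.26, 8.76, 9.13 and 8.94 on KO 21, 23, 8, 9 and 10. It rose by 1.08 (SE 0.18), 2.12-fold, with no overlap and a limma adjusted p of 0.00685. Ndrg2 rose by 0.78 (limma adjusted p = 0.0498), a call kept only without WT 2 among the 10 fits that left out 1 array. Thbs1, encoding thrombospondin 1, fell by 0.86 (limma adjusted p = 0.0436), a call kept without WT 2 and without KO 23 and lost without each other array. Gas1 differed by 0.91 (SE 0.49) and did not pass, with an SD of 1.33 in WT.

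**Figure D3:**
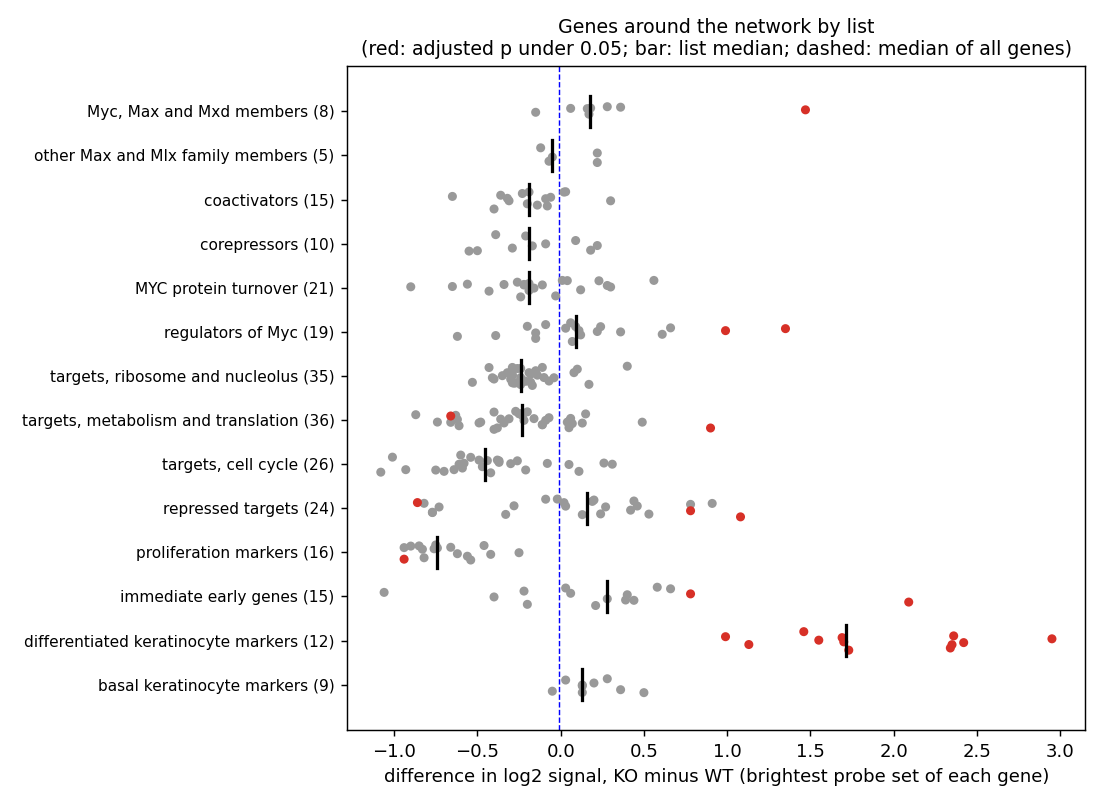
Difference in log2 signal, KO minus WT, of each gene (points, brightest probe set) in 14 lists, with the number measured in brackets, red where the limma adjusted p is under 0.05, the list median as a bar and the median of all genes as a dashed line at -0.01. Medians of the 3 lists of activated targets lie at -0.24, -0.23 and -0.45, and all 12 differentiated keratinocyte markers are red between 0.99 and 2.95.

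The activated targets were also read by whether their promoter holds the E-box letters. Of 84 genes in the 3 lists of activated targets with a promoter in the table, 19 (22.6%) held CACGTG, with a median difference of -0.22, and the 65 without it had a median of -0.29. By list, the medians with and without the letters were both -0.23 for ribosome production, -0.16 and -0.27 for metabolism and translation, and -0.42 and -0.45 for the cell cycle, where only 2 genes held them. These differences were not tested.

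Differentiation markers were read beside Mxd1. All 12 markers of differentiated keratinocytes rose, led in size by Lor, encoding loricrin, at 2.95, and their mean lay between 0.72 and 1.17 on KO arrays and between -1.25 and -0.41 on WT arrays (relative to the 10-array mean). Mxd1 was likewise higher on each KO array, and its lowest KO arrays, KO 21 and KO 23, were the second highest and the lowest KO arrays for the markers. That order is of the brightest Mxd1 probe set, and on the other called one KO 21 and KO 8 were lowest. Basal markers gave 0 calls by limma among 9, with 1 unadjusted p under 0.05 and a median of 0.13. The part of a changed share of differentiated cells in the Mxd1 difference was not tested.

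**Figure D4:**
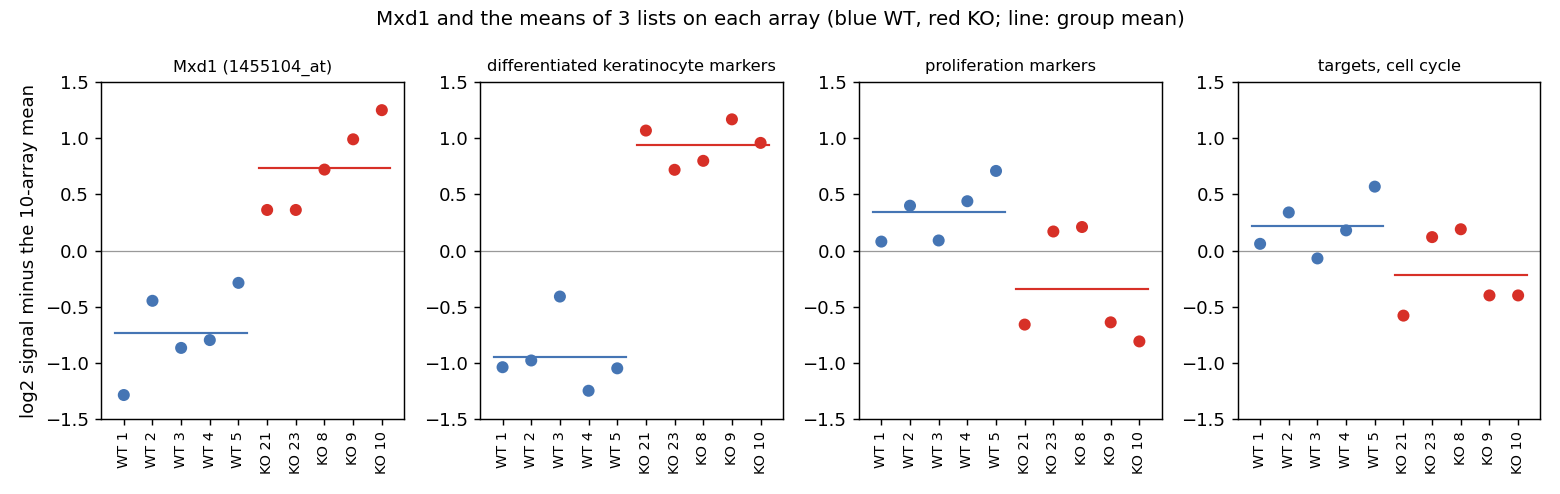
Log2 signal on each array minus the 10-array mean (points) for the brightest Mxd1 probe set and for the means of the differentiated keratinocyte, proliferation and cell cycle target lists, with group means as lines, WT in blue and KO in red. Mxd1 and the differentiation markers separate the groups, while KO 23 and KO 8 lie among the WT arrays for the other 2 lists.

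Immediate early genes, the rapidly induced class to which Myc belongs, gave 2 higher and 0 lower of 15, with a median of 0.28. An unadjusted limma p under 0.05 was seen in 4. Egr3 rose by 2.09 (SE 0.34, limma adjusted p = 0.00657), though its other probe set did not pass at 0.07, and Zfp36, encoding an mRNA decay factor, rose by 0.78 (SE 0.14, limma adjusted p = 0.0117). Fosb differed by -1.06 with an SD of 2.65 in WT, and Egr2 by 0.66. Neither passed. Without WT 1, WT 2 and KO 8 the adjusted p of Zfp36 was 0.0677 and that of the brightest Mxd1 probe set 0.0365.

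The genes whose pattern over the 10 arrays was most like that of Mxd1, among 8828 genes with an SD of at least 0.3, were Marchf3, Zfp36 and Lrch1, with Pearson's r of 0.981, 0.980 and 0.978. All of them rose in KO, and after the group means were taken out the r values were 0.897, 0.883 and 0.907. For Myc they were Dusp5, encoding a phosphatase of ERK kinases, Acox2 and Sh2d5, with r of 0.933, 0.850 and 0.843, and 0.918, 0.823 and 0.912 after the group means were taken out. None of the genes most like Myc was called (differences of 0.55, 0.27 and 0.03). These are the highest values among all genes compared on the same arrays and are given as a measure of likeness only.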

How the data were processed

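Total RNA was extracted with Trizol and 6 µg of it was labelled with biotin for 1-colour Affymetrix Mouse430_2 arrays, per the labels' protocols. The authors deposited 1 log2 signal for each probe set and array, and the submitters' processing notes name RMA. This method corrects background, equalises the arrays and summarises probes. It compresses differences near background and hides a shift common to most genes, and its version is not given in the sources used here. The values, from 1.13 to 14.92, were used as deposited. Unused sample columns numbered 0. Having 5 arrays a group limits the precision.

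Of 45101 probe sets 64 are controls, 932 are annotated to several genes and 9160 to none, and these were left out. KO minus WT was fitted with limma 3.58.1 in R 4.3.3 (lmFit, eBayes) over the 34945 others, with two-sided p-values adjusted by Benjamini-Hochberg. SE is the moderated standard error. Single values were compared by an exact permutation test over 252 assignments. The probe set with the highest mean stood for a gene in the lists. The fit was tested on simulated data. Members and lists were chosen with earlier results of these data known. Named are all members, Sgpp1, in each list up to 4 called genes by adjusted p filled up with the largest differences, the brightest marker of each other cell type, and the 3 genes most like Myc and Mxd1. Lor and Krt5 were chosen after their values were seen. Alternatives were another unit of test, filters, variance models, array weights, scalings, the running number and left-out arrays.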

Additional observations from a re-analysis of the deposited data

Results flagged for a closer look

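In 5 of 38 groups of 5 arrays (19 probe sets, each in WT and KO), 1 array stood apart from the other 4 by a larger share of the group's range than Dixon's critical value for 5 samples. Chance flags about 1 in 20 groups. Of the 5, 3 were array WT 1: the Mxd3 probe sets 1422970_at at 6.98 (others 6.11 to 6.33) and 1448878_at at 3.00 (others 3.61 to 3.85), and the Mxi1 probe set 1450376_at at 6.55 (others 7.89 to 8.33). Array WT 1 also had the lowest mean correlation with the other arrays and the most poly-A spike-in signal, 11.49. The others were both of Mnt: 1418192_at at 8.86 on KO 23 (others 8.99 to 9.02) and 1418193_at at 4.14 on WT 5 (others 4.63 to 4.76). None of these 5 probe sets was called under any alternative run.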

How the results depend on the processing

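Both Mxd1 calls kept their direction under each alternative run and their side of the threshold under each but the running number as a covariate, where 0 member probe sets were called. With 1 probe set per gene only the brightest is tested, and 1 was called. In that covariate fit the counts were also 0 higher and 0 lower for the genes of the lists and 0 and 0 for the whole table (main 537 and 78), and Prdm1 differed by -0.02. Other genes that lost their call there kept their direction at a larger SE, among them Klf4 at 0.92 (SE 0.33, main 0.99), Thbs1 at -1.03 (SE 0.41, main -0.86), Shmt2 at -0.71 (SE 0.30, main -0.66) and Hk2 at 0.48 (SE 0.34, main 0.90). The list genes called lower (main 3) were 1 with all probe sets other than controls, 0 with arrays centred on their median, 20 with array weights, and 1 without WT 1, WT 2 and KO 8, where 3 were higher (main 7). Array weights called 1269 probe sets higher and 764 lower, and Mxd1 1422002_at passed there at 1.11 with a limma adjusted p of 0.00778. Without those 3 arrays 43 probe sets were lower. Leaving out single arrays gave 2 member probe sets each time, 4 to 6 list genes higher and 0 to 8 lower, and 301 (without KO 9) to 533 probe sets higher and 14 (without KO 9) to 124 (without KO 8) lower. No other cause of these changes was tested than the construction of each fit. The dim probe sets of Mycn, Mxd3, Mxd4 and Mnt, 5 of the 19 with a mean under 5, lie where RMA compresses differences. No paired analysis was possible because no replicate number occurs in both groups.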
